A study of Mus musculus with 6 samples.

Results

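The myeloid chemokine genes examined here were 10 genes chosen by symbol: Cxcl1, Cxcl2, Cxcl3, Cxcl10, Ccl2, Ccl3, Ccl4, Ccl5, Ccl6 and Ccl9. All 10 were found among the 34199 gene symbols in the count data. They were selected by name as chemokines of myeloid cells, by a rule that uses no measured value, although earlier results of these data were known.

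RNA-seq was performed on granulocyte-macrophage progenitors (GMPs) from C57Bl/6 mouse bone marrow that were immortalized by HOXA9 fused to an estrogen receptor domain (Lys-GFP-ER-HoxA9 cells, iGMPs). The fusion is active only while estradiol is present, and all 3 groups carry it together with a lysozyme-driven GFP reporter. CAF-1 OFF cells were given 500 µM IPTG to express an shRNA against Chaf1b, which encodes part of the histone chaperone CAF-1, and were kept in estradiol at 150 ng/ml. Control cells were also given IPTG and kept in estradiol. HOXA9 OFF cells were washed free of estradiol, which inactivates the HOXA9 fusion. All cells were collected at 24 h, with 2 libraries in each group. The labels name neither the clones used, nor a vector in the control cells, nor any IPTG in the HOXA9 OFF cultures. CAF-1 OFF and control may therefore differ in vector or clone as well as in Chaf1b, and HOXA9 OFF and control in more than estradiol. Nor do they say that replicates were separate cultures, and p-values then measure only the spread between these libraries, which may be technical.

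Chemokines are small secreted proteins that guide leukocytes by binding G protein-coupled receptors on their surface. CXC chemokines with an ELR motif (Cxcl1, Cxcl2, Cxcl3) attract neutrophils through Cxcr2, whereas Cxcl10 is induced by interferon and attracts lymphocytes through Cxcr3. Of the CC chemokines, Ccl2 attracts monocytes through Ccr2, Ccl3, Ccl4 and Ccl5 attract monocytes and T cells, and Ccl6 and Ccl9 are rodent ligands of Ccr1 made by myeloid cells.

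Cxcl3, Ccl6 and Ccl9 carried the clearest differences between groups. Cxcl3 was near 0 in control and HOXA9 OFF cells and was present in both CAF-1 OFF libraries, at a mean of 5.25 ± 0.303 CPM (counts scaled to library size, SD, n = 2). Ccl6 rose and Ccl9 fell in HOXA9 OFF cells, although the genes are neighbours on the chromosome. Ccl2, Ccl3 and Ccl4 were high in 1 of the HOXA9 OFF libraries and much lower in the other. Cxcl1 and Ccl5 were not detectable above 3 counts in any library.

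Between 16773560 and 25170898 reads were assigned to genes in each library, and 3 counts corresponded to 0.118 to 0.182 CPM. Chaf1b was at 90.0 and 105 CPM in control and at 17.8 and 12.1 CPM in CAF-1 OFF cells, so the knockdown was present in both libraries (log2 fold change -2.71 ± 0.20 SE, FDR = 0.0198, edgeR quasi-likelihood test). Chaf1b was at 64.6 and 61.4 CPM in HOXA9 OFF cells and was thus also lower there than in control (log2 -0.63 ± 0.18, FDR = 0.0396). All 10 GMP markers (including Mpo, Elane, Cd34 and Kit) were detected in every library, with summed levels of 12592 to 18486 CPM. In HOXA9 OFF against control, however, 5 of them fell, led by Flt3 (log2 -6.05 ± 0.25), Cd34 (-1.86 ± 0.13) and Kit (-1.16 ± 0.16), and 1, Ms4a3, rose (1.31 ± 0.25, edgeR), where 8.97% of all 12460 genes fell and 13% rose. The part of this in the chemokine values was not tested. In bulk RNA, fewer cells of a type and less RNA per cell cannot be told apart.

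The members lie on chromosomes 5 and 11 (NCBIM37 assembly, GENCODE gene models). On chromosome 5, Cxcl3 spans 91215129 to 91217112, Cxcl1 spans 91320267 to 91322141 and Cxcl2 spans 91332897 to 91334935, all on the plus strand. Cxcl10 lies apart from them at 92775664 to 92777915 on the minus strand and overlaps Art3 on the other strand. On chromosome 11, Ccl5 (83339280 to 83344020), Ccl9 (83386421 to 83392138), Ccl6 (83401384 to 83406589) and Ccl3 (83461346 to 83462857) are on the minus strand and Ccl4 (83476086 to 83478185) is on the plus strand. In this annotation no other coding gene lies between these neighbours, and Ccl9 and Ccl6 are 9.2 kb apart. Ccl2 (81849073 to 81850955, plus strand) lies in a separate CC cluster with Ccl7, Ccl11, Ccl12, Ccl8 and Ccl1. Ccl2 overlaps Gm17268 and Ccl6 overlaps the non-coding gene E230016K23Rik on the other strand. Since the strand setting of the counting is not given in the sources used here, counts of Cxcl10, Ccl2 and Ccl6 may include reads of these partners. Cxcl2 and Cxcl3 transcripts share 61 words of 50 bases (3.33% of those in Cxcl2 and 6.35% of those in Cxcl3), and reads lying wholly in them would align to both genes. Ccl9 transcripts share 48 such words (1.61% of their own) with transcripts of many genes outside the members.

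The 150 bases before the RefSeq start of Cxcl1, Cxcl2 and Cxcl3 are shown because only Cxcl3 of these similar genes was high in CAF-1 OFF cells. Those of Ccl6 and Ccl9 are shown because these neighbours differed in opposite directions in HOXA9 OFF cells. Capitals mark stretches of GGG, any 3 bases and TTCC (or, on the other strand, GGAA, any 3 bases and CCC), a core recognised by NF-kB, and ATAAAAGG, letters like those of a TATA box. The sequences are from a RefSeq promoter table of the GRCm38.p6 build, and their NCBIM37 positions are those of their only exact match. They read 5′ to 3′ on the strand of the gene.
Cxcl1, chr5:91320121-91320270, plus strand: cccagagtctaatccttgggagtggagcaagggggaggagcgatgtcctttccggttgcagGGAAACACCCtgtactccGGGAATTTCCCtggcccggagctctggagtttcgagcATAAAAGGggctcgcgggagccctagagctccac
Cxcl2, chr5:91332775-91332924, plus strand: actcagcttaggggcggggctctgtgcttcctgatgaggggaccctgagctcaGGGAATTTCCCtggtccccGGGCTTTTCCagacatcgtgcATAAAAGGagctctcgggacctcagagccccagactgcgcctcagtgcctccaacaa
Cxcl3, chr5:91214977-91215126, plus strand: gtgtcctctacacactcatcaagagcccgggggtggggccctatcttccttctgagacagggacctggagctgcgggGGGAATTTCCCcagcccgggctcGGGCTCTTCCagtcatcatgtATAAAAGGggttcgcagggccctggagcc
Ccl6, chr11:83406590-83406739, minus strand: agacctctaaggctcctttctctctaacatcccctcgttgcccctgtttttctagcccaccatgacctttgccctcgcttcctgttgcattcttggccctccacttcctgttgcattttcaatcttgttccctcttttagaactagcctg
Ccl9, chr11:83392139-83392288, minus strand: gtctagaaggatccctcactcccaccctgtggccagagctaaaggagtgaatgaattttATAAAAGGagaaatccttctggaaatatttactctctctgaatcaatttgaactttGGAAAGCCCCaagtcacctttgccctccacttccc

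Cxcl1, Cxcl2 and Cxcl3 each had the stretch GGGAATTTCCC, in which the NF-kB-like letters are read on both strands from overlapping bases, and each had ATAAAAGG nearer the start. The stretch began 71 bases before the start in Cxcl1, 97 in Cxcl2 and 73 in Cxcl3. Another NF-kB-like match began 89 bases before the start in Cxcl1, 78 in Cxcl2 and 50 in Cxcl3. The last 28 bases printed for Cxcl2 are inside its GENCODE gene model, which starts earlier than the RefSeq one. Ccl9 had an NF-kB-like match 35 bases and ATAAAAGG 91 bases before the start. Cxcl10, whose sequence is not printed, had NF-kB-like matches 159 and 104 bases before the start and no ATAAAAGG. Ccl3 and Ccl6 had neither in their windows. AGGAAG, a core of ETS factors such as PU.1, was found on either strand 73 and 47 bases before the start in Ccl6, 174 and 106 bases before it in Cxcl3, and at 124 bases before and 1 base after it in Cxcl2. TTGCNNAA, a core of C/EBP factors, was also searched and had no match in the windows of the members. Among 32851 windows of 300 bases in the table (250 before the start and 50 after it), 5.56% had an NF-kB-like match, 1.76% had ATAAAAGG, 35.4% had AGGAAG and 10.8% had TTGCNNAA on either strand. The windows of Cxcl2 and Cxcl3 were 60.3% identical in alignment, those of Cxcl1 were 55.6% and 55.5% identical to them, and those of Ccl6 and Ccl9 were 49.7% identical. The letters were chosen after the windows had been seen, and a match describes the sequence only. Windows were given for 7 members. Ccl2, Ccl4 and Ccl5 were not among them.

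Of the neutrophil attractants, Cxcl3 was the one with a large difference between groups. Cxcl3 had 97 and 108 counts in the CAF-1 OFF libraries, 4 and 1 in those of control and 3 and 7 in those of HOXA9 OFF. In CPM, the CAF-1 OFF libraries were at 5.04 and 5.47, the control libraries at 0.157 and 0.0581, and the HOXA9 OFF libraries at 0.145 and 0.424. Both CAF-1 OFF libraries were thus above every other library, while control and HOXA9 OFF overlapped at the limit of detection. The fitted difference between CAF-1 OFF and control was 5.44 ± 0.60 (log2, SE, 95% interval 4.0 to 6.88), a 43.4-fold higher level. The summed counts of 205 and 5 gave a ratio of 44.8, with an exact interval of 18.9 to 139.5 that covers counting error only.

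Despite its size, this difference did not pass the threshold over all genes with edgeR (unadjusted p = 5.03e-05, FDR = 0.0627). Cxcl3 passed with the DESeq2 Wald test (FDR = 1.72e-07), in an edgeR fit to the 4 libraries compared (FDR = 0.0321) and in an edgeR fit without the expression filter (FDR = 3.28e-09). Fold changes in these 3 fits were between 5.43 and 5.53 on the log2 scale. Without control replicate 1 the edgeR difference was 6.35 (FDR = 0.192) and without control replicate 2 it was 5.02 (FDR = 0.430). Against HOXA9 OFF, Cxcl3 was 18.7-fold higher in CAF-1 OFF cells and passed (log2 4.23 ± 0.55, FDR = 0.0029, edgeR). That difference was 3.62 without HOXA9 OFF replicate 1 and 5.12 without replicate 2. Cxcl3 passed the expression filter only through its level in the CAF-1 OFF libraries. HOXA9 OFF and control did not separate (log2 1.21 ± 0.74, 95% interval -0.55 to 2.97, edgeR FDR = 0.261).

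Cxcl2, a close relative of Cxcl3, stayed at a few counts throughout. It had 10 and 8 counts in the control libraries, 13 and 18 in those of CAF-1 OFF, and 4 and 8 in those of HOXA9 OFF. Mean levels in the same order were 0.429 ± 0.0506, 0.793 ± 0.167 and 0.339 ± 0.206 CPM (SD, n = 2 each). Both CAF-1 OFF libraries were the highest, but none of the comparisons passed with edgeR (CAF-1 OFF against control, log2 0.89 ± 0.57, 95% interval -0.46 to 2.24, FDR = 0.631). Against HOXA9 OFF the Cxcl2 difference was 1.25 ± 0.59 (FDR = 0.158). Cxcl1 had a count of 1 in control replicate 1 and 0 in the other 5 libraries, which allows at most 0.145 to 0.182 CPM in them. Differences in Cxcl1 between groups were thus not detectable at this depth.

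Cxcl10, the interferon-induced ligand of Cxcr3, was lowest in control cells. It had 13 and 6 counts in the control libraries, 24 and 26 in those of CAF-1 OFF, and 17 and 27 in those of HOXA9 OFF. Levels were 0.511 and 0.348 CPM, 1.25 and 1.32 CPM, and 0.820 and 1.64 CPM in the same order, so that neither treated group overlapped control and the treated groups overlapped each other. The CAF-1 OFF difference was 1.54 ± 0.51 (95% interval 0.32 to 2.76, FDR = 0.363) and the HOXA9 OFF difference was 1.46 ± 0.52 (FDR = 0.0747, edgeR). Both rest on the same control libraries, and neither passed. Between CAF-1 OFF and HOXA9 OFF the difference in Cxcl10 was 0.08 ± 0.47 (95% interval -1.05 to 1.20).

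**Figure D1:**
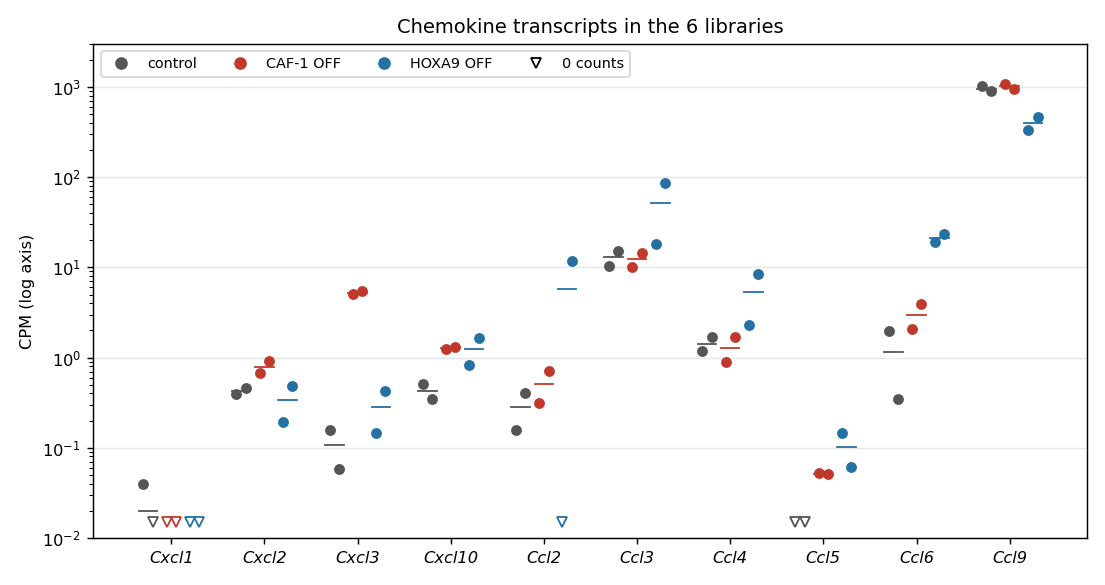
Level of each of the 10 chemokine genes in CPM (log axis) in the 6 libraries. Points are libraries, lines are means of the 2 libraries of a group, and open triangles are libraries with 0 counts. Cxcl3 is separated in both CAF-1 OFF libraries (5.04 and 5.47 CPM), Ccl6 and Ccl9 are displaced in opposite directions in HOXA9 OFF, and the HOXA9 OFF libraries are far apart for Ccl2, Ccl3 and Ccl4.

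Ccl2, the monocyte attractant, was decided by a single library. It had 4 and 7 counts in the control libraries and 6 and 14 in those of CAF-1 OFF, but 0 in HOXA9 OFF replicate 1 and 192 in HOXA9 OFF replicate 2. The count of 0 allows at most 0.145 CPM, whereas replicate 2 was at 11.6 CPM. The HOXA9 OFF libraries therefore lay below and above all others, and their mean of 5.82 ± 8.23 CPM (SD, n = 2) describes neither of them. In edgeR the HOXA9 OFF difference was 4.40 ± 1.88 (FDR = 0.124). Without HOXA9 OFF replicate 1 it was 5.41, and without replicate 2 the sign turned. CAF-1 OFF and control differed by 0.92 ± 2.07 (95% interval -4.0 to 5.85, FDR = 0.915), an interval too wide to limit the size of any change.

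Other genes were high in the same library as Ccl2. Ccl7, its neighbour and also a monocyte attractant, had 55 counts in HOXA9 OFF replicate 2 and at most 1 in each other library, and Ccl12 had 6 counts there and 0 elsewhere. Among the 10 macrophage markers, the complement genes C1qb and C1qc had 291 and 99 counts in HOXA9 OFF replicate 2 against 3 and 1 in replicate 1. C1qa had 4 and 0 counts in these libraries, Mertk had 4 and 2, and Marco had 0 in all 6. Summed over the list, macrophage markers were at 28.5 to 52.3 CPM in the control libraries, 32.8 to 40.6 CPM in those of CAF-1 OFF, and 422 and 501 CPM in HOXA9 OFF replicates 1 and 2. Most of the HOXA9 OFF sum was present in both libraries, with Csf1r at 4457 and 4824 counts against 73 to 141 elsewhere, and 4 of the 5 macrophage markers tested rose (edgeR), where 13% of all genes rose. The largest were Csf1r (log2 5.94 ± 0.26), Cd68 (2.45 ± 0.35) and Emr1 (2.43 ± 0.35). The part of these markers in the Ccl2 values was not tested.

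**Figure D2:**
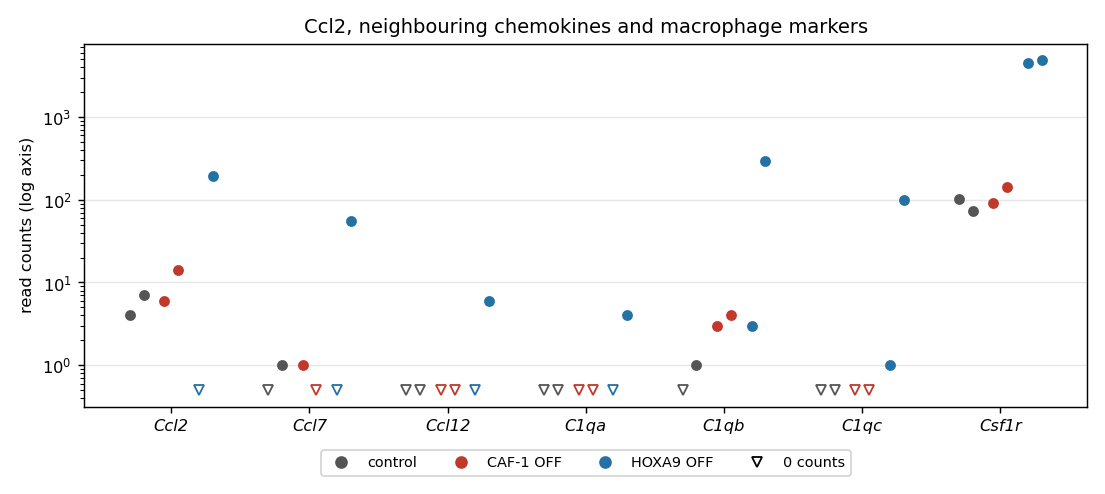
Read counts (log axis) of Ccl2, its neighbours Ccl7 and Ccl12, and the macrophage markers C1qa, C1qb, C1qc and Csf1r in the 6 libraries, with open triangles for 0 counts. Ccl2, Ccl7, C1qb and C1qc are high in HOXA9 OFF replicate 2 (192, 55, 291 and 99 counts) and at 3 counts or fewer in replicate 1, whereas Csf1r is high in both (4457 and 4824).

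Ccl3 and Ccl4, macrophage inflammatory proteins that are encoded side by side, followed the same libraries. Ccl3 had 266 and 265 counts in the control libraries, 193 and 285 in those of CAF-1 OFF, and 373 and 1431 in those of HOXA9 OFF. The HOXA9 OFF libraries, at 18.0 and 86.8 CPM, were both above the highest control library (15.4 CPM), but they differed far more from each other than did those of control or CAF-1 OFF. Ccl4 had 30 and 29, 17 and 33, and 47 and 138 counts in the same libraries and thus showed the same order at a lower level. There were 7.94 to 11.4 Ccl3 counts for each Ccl4 count over the 6 libraries.

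Neither gene passed in HOXA9 OFF against control with edgeR (Ccl3 log2 2.02 ± 0.66, FDR = 0.0603, and Ccl4 log2 1.89 ± 0.66, FDR = 0.0714). With the replicate number as a block both passed (1.73, FDR = 0.0387, and 1.67, FDR = 0.0359). With DESeq2, Ccl4 passed against control (FDR = 0.0295) and against CAF-1 OFF (FDR = 0.0181). Without HOXA9 OFF replicate 2 the Ccl3 difference was 0.49 (FDR = 0.356) and the Ccl4 difference 0.68 (FDR = 0.473, edgeR), and without replicate 1 they were 2.75 and 2.55. In CAF-1 OFF cells Ccl3 was at 12.2 ± 3.11 CPM and control at 12.9 ± 3.49 CPM (SD, n = 2 each), with overlapping libraries (log2 -0.07 ± 0.66, 95% interval -1.65 to 1.5). The corresponding Ccl4 levels were 1.28 ± 0.557 and 1.43 ± 0.357 CPM (log2 -0.15 ± 0.68, 95% interval -1.77 to 1.47). For both genes the sign of this small difference depended on which library was included. Ccl5 had 0 counts in both control libraries, 1 in each CAF-1 OFF library, and 3 and 1 in those of HOXA9 OFF, so that no difference was detectable.

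Ccl6 and Ccl9, the Ccr1 ligands, gave the clearest results in HOXA9 OFF cells. Ccl6 had 394 and 385 counts in the HOXA9 OFF libraries, 50 and 6 in those of control, and 40 and 77 in those of CAF-1 OFF. At 19.0 and 23.3 CPM, both HOXA9 OFF libraries were well above the rest, which lay between 0.348 and 3.90 CPM. Ccl6 rose 17.2-fold in HOXA9 OFF against control (log2 4.11 ± 0.64, 95% interval 2.58 to 5.64, FDR = 0.00498, edgeR). The control libraries were themselves far apart. Without control replicate 1 the difference was 5.89 and without control replicate 2 it was 3.43 on the log2 scale.

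With CAF-1 OFF, Ccl6 was at 2.08 and 3.90 CPM, against 1.96 and 0.348 CPM in control, and did not pass (log2 1.29 ± 0.64, 95% interval -0.23 to 2.80, FDR = 0.534, edgeR). The difference was 3.08 without control replicate 1 and 0.61 without control replicate 2. Both CAF-1 OFF libraries were above both control libraries, the closest pair by a small margin. Against HOXA9 OFF, Ccl6 was lower in CAF-1 OFF (log2 -2.82 ± 0.59, FDR = 0.0145), although this was not passed without CAF-1 OFF replicate 1 (-2.44, FDR = 0.0629).

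Ccl9 was by far the most abundant chemokine transcript in these progenitors. It had 25856 and 15475 counts in the control libraries, 20921 and 18959 in those of CAF-1 OFF, and 6944 and 7709 in those of HOXA9 OFF. Mean levels in the same order were 957.0 ± 82.9, 1024 ± 89.8 and 401 ± 93.6 CPM (SD, n = 2 each), and both HOXA9 OFF libraries were below all others. Ccl9 fell in HOXA9 OFF against control by 1.25 ± 0.17 on the log2 scale (95% interval -1.66 to -0.84, FDR = 0.00327, edgeR), a 2.39-fold lower level. In CAF-1 OFF the difference was 0.10 ± 0.17, and its 95% interval of -0.31 to 0.50 excludes a change of the size seen in HOXA9 OFF. CAF-1 OFF and HOXA9 OFF themselves differed in Ccl9 by 1.35 ± 0.17 (FDR = 0.00279).

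The opposite changes of the adjacent Ccl6 and Ccl9 genes altered their proportion. For every 100 Ccl9 counts there were 0.193 and 0.0388 Ccl6 counts in the control libraries, 0.191 and 0.406 in those of CAF-1 OFF, and 5.67 and 4.99 in those of HOXA9 OFF. This proportion lies within a library and does not depend on how libraries were scaled.

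**Figure D3:**
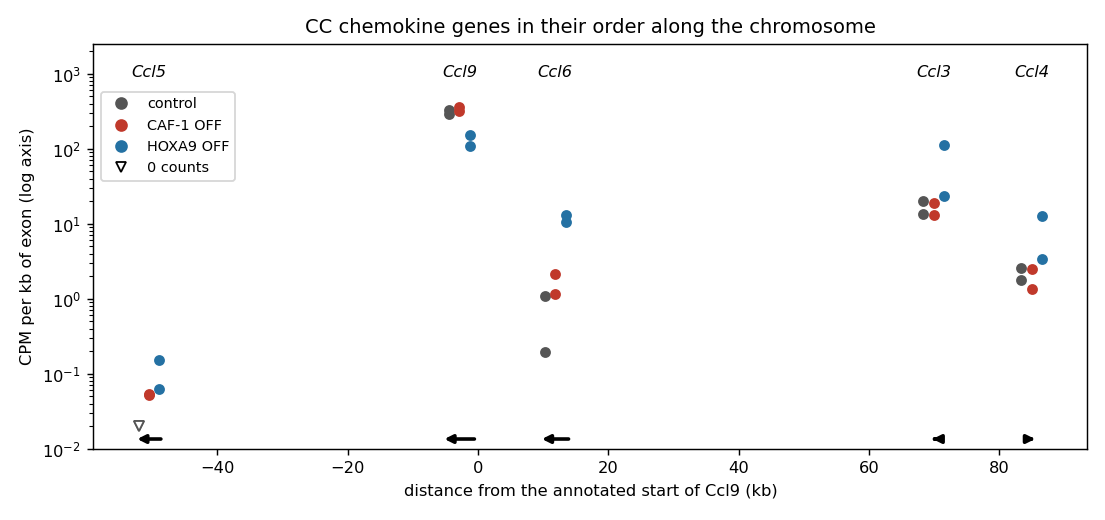
Levels of 5 CC chemokine genes in CPM per kb of annotated exon (log axis) against the distance of each gene from the annotated start of Ccl9 (kb), with points for the 6 libraries, set slightly apart by group for legibility, and arrows for the extent and direction of each gene. Ccl9 is lower and its neighbour Ccl6, 9.2 kb away, is higher in both HOXA9 OFF libraries.

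For CAF-1 OFF against control, edgeR called 0 of the 8 chemokine genes tested (at least 1.5-fold, FDR under 0.05), where it called 0.0321% of all 12460 genes. At an unadjusted p under 0.05 there were 2, Cxcl3 and Cxcl10, where 10.7% of all genes were, and DESeq2 called 1, Cxcl3, where it called 1.6% of 11976 genes. In HOXA9 OFF against control 1 rose (Ccl6) and 1 fell (Ccl9), beside 13% and 8.97% of all genes. In CAF-1 OFF against HOXA9 OFF 2 were higher (Cxcl3 and Ccl9) and 1 was lower (Ccl6), beside 9.56% and 12.6% of all genes. With 8 genes tested, these counts in HOXA9 OFF are near what the shares of all genes give. The median difference from control over these genes was 0.91 for CAF-1 OFF and 1.68 for HOXA9 OFF, where that over all genes tested was -0.0044 and -0.0035. Both medians include genes tested only through their level in treated libraries, as described next, and are not read as a change of the set.

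Those 8 are not a neutral selection, because a gene needed about 0.521 CPM in at least 2 libraries to be tested. Cxcl2 and Cxcl3 reached that level in the CAF-1 OFF libraries only, and Ccl2 reached it in 1 CAF-1 OFF and 1 HOXA9 OFF library. Cxcl10 reached it in both CAF-1 OFF and both HOXA9 OFF libraries but in no control library. Ccl6 reached it in 5 libraries, of which 1 was a control library. Ccl3, Ccl4 and Ccl9 reached it in all 6. Cxcl1 and Ccl5 did not reach it in any library and were not tested.

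**Figure D4:**
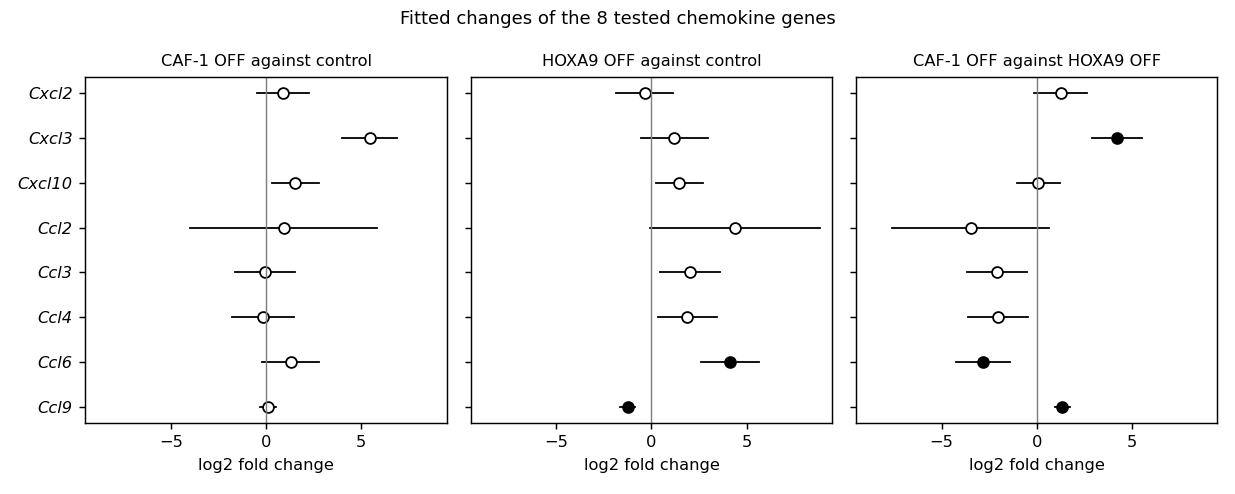
Fitted log2 fold changes of the 8 chemokine genes tested in the 3 comparisons, with 95% intervals. Filled points passed the threshold (at least 1.5-fold, FDR under 0.05, edgeR) and open points did not. Cxcl3 has the largest value in CAF-1 OFF against control (5.44) without passing, and Ccl6 (4.11) and Ccl9 (-1.25) passed in HOXA9 OFF against control.

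Per kilobase of annotated exon, the order of levels also differed between groups. In control cells Ccl9 (314 CPM per kb) was followed by Ccl3 (16.9), Ccl4 (2.17) and Ccl6 (0.644), and Ccl9, Ccl3 and Ccl4 each lay above the next without overlap. Below Ccl4, Ccl6, Cxcl10, Ccl2 and Cxcl2 could not be separated from their neighbours, and Cxcl3 came after them at 0.107. In CAF-1 OFF cells Cxcl3 (5.21 CPM per kb) took the place after Ccl9 (336) and Ccl3 (16.0), and it overlapped neither Ccl3 nor Ccl4 (1.94). In HOXA9 OFF cells the libraries of Ccl9 (132 CPM per kb) and Ccl3 (68.4) overlapped, and Ccl6 (11.8), Ccl4 (8.06) and Ccl2 (5.11) came next without separation.

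Ccl9 made up 98.6% and 98.0% of the chemokine counts in control and 98.2% and 97.1% in CAF-1 OFF. In HOXA9 OFF it made up 89.2% (Wilson 95% interval 88.5 to 89.9) in replicate 1 and 77.9% (77.1 to 78.7) in replicate 2. The other 9 genes together were at 14.8 and 18.7 CPM in the control libraries, 20.3 and 28.5 CPM in those of CAF-1 OFF, and 40.6 and 132.7 CPM in those of HOXA9 OFF. The sum was thus highest in the library with high Ccl2 and Ccl3.

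Receptors for these ligands were compared from a list of 22 chemokine receptor genes, of which 9 were tested. In HOXA9 OFF against control 5 rose and 2 fell, beside the 13% and 8.97% of all genes given above. Ccr1, which binds Ccl3, Ccl5, Ccl6 and Ccl9, was at 2.24 and 1.92 CPM in control and at 68.9 and 87.8 CPM in HOXA9 OFF (log2 5.22 ± 0.20, FDR = 0.000102, edgeR). Ccr1 was at 4.16 and 4.15 CPM in CAF-1 OFF, above both control libraries (log2 0.99 ± 0.20, FDR = 0.192). Ccr2, the receptor of Ccl2, fell from 346 and 539 CPM in control to 67.2 and 212 CPM in HOXA9 OFF (log2 -1.67 ± 0.51, FDR = 0.0469).

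Cxcr2, the receptor of Cxcl1, Cxcl2 and Cxcl3, was at 1.49 and 1.45 CPM in the control libraries, 4.47 and 4.25 CPM in those of CAF-1 OFF, and 20.1 and 9.58 CPM in those of HOXA9 OFF. It rose in HOXA9 OFF (log2 3.33 ± 0.39, FDR = 0.00204), and in CAF-1 OFF it did not pass with edgeR (log2 1.56 ± 0.39, FDR = 0.266). Cxcr3, the receptor of Cxcl10, had 24 and 9 counts in the HOXA9 OFF libraries, 3 and 0 in those of CAF-1 OFF, and 0 in both of control. It rose in HOXA9 OFF (FDR = 0.0238, edgeR), but with control at 0 the size of its change is not given, and it was tested only because of its level in the HOXA9 OFF libraries. The other receptor that fell was Ccr7, which guides leukocytes to lymph nodes (log2 -3.52 ± 0.81, FDR = 0.0189). Of the 9 receptors, edgeR called 0 in CAF-1 OFF against control, 4 had an unadjusted p under 0.05, and DESeq2 called 2, Cxcr2 and Ccr1, beside 10.7% and 1.6% of all genes.

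**Figure D5:**
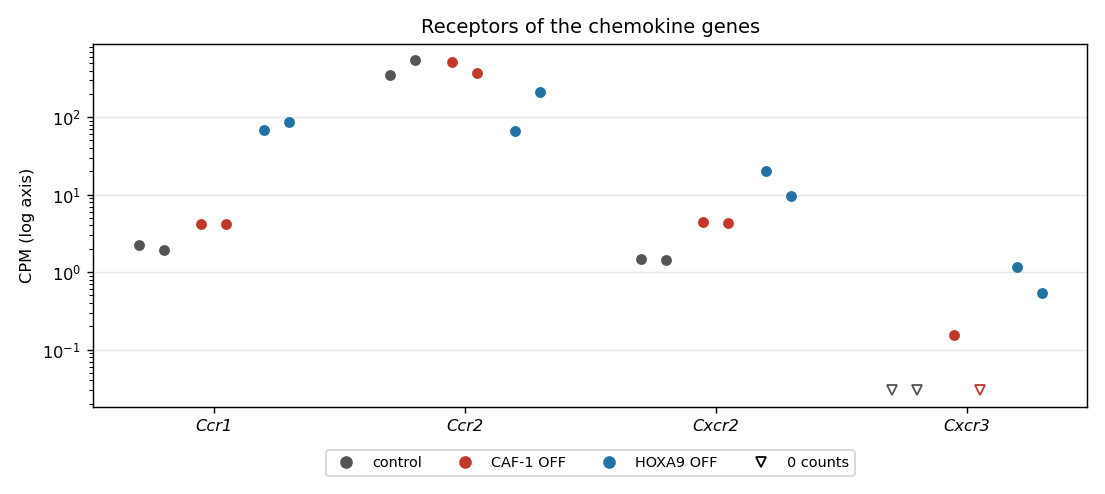
Levels in CPM (log axis) of 4 receptor genes for the chemokines in the 6 libraries, with open triangles for 0 counts. Ccr1 is at 68.9 and 87.8 CPM in HOXA9 OFF against 4.16 CPM or less elsewhere, Cxcr2 and Cxcr3 are also highest there, and Ccr2 is lowest there.

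Most other chemokine ligand genes were silent. Of 28 listed, 27 were in the count data and 5 were tested. Ppbp, a platelet CXC chemokine, rose in HOXA9 OFF (log2 5.27 ± 1.59, FDR = 0.0459, edgeR, where 13% of all genes rose), but through 122 counts in replicate 2 against 6 in replicate 1. Of these 5, edgeR called 0 in CAF-1 OFF against control (0.0321% of all genes), 2 had an unadjusted p under 0.05 (10.7% of all genes), and DESeq2 called 1 (1.6% of all genes). That gene, named after its values were seen, was Pf4, which lies in the chromosome 5 cluster of Cxcl3 and was at 14.2 and 9.22 CPM in CAF-1 OFF against 2.63 and 2.84 CPM in control (log2 2.09 ± 0.44, FDR = 0.199, edgeR). Cxcl9, the other interferon-induced ligand of Cxcr3 that was tested, was called by edgeR in CAF-1 OFF against HOXA9 OFF (log2 2.37 ± 0.70, FDR = 0.0428, where 9.56% of all genes were higher), at 0.623 and 0.810 against 0.145 and 0.121 CPM. In that comparison edgeR called 1 of the 5, whereas DESeq2 called 2 others, Pf4 and Ppbp, and not Cxcl9. It was tested only because of its level in the CAF-1 OFF libraries.

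Genes of pathways known to control chemokine transcripts were also compared. Of 26 NF-kB pathway and early inflammatory genes, 23 were tested, 12 rose and 0 fell in HOXA9 OFF against control, beside 13% and 8.97% of all genes. The largest increases were in Il1rn (log2 4.54 ± 0.34), which encodes the interleukin 1 receptor antagonist, Il1b (2.26 ± 0.54) and Tnfaip3 (1.83 ± 0.28), an NF-kB inhibitor. For CAF-1 OFF against control neither edgeR nor DESeq2 called any of the 23 (0 each), and 2 had an unadjusted p under 0.05, a share near the 10.7% of all genes. Il1b was at 1.25 and 1.37 CPM in the CAF-1 OFF libraries, 0.236 and 0.116 CPM in those of control, and 1.01 and 0.788 CPM in those of HOXA9 OFF (CAF-1 OFF difference 2.79 ± 0.52, FDR = 0.161, edgeR). The median difference from control over the list was 0.12 for CAF-1 OFF and 0.86 for HOXA9 OFF, and the part of these genes in the chemokine values was not tested.

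Of 22 interferon response genes, 20 were tested and 10 rose in HOXA9 OFF against control (13% of all genes rose), led by Ifit3 (log2 4.69 ± 0.88), Ifit1 (2.98 ± 0.53) and Oasl2 (2.79 ± 0.76), all antiviral effectors. Ifit3 was tested only because of its level in the HOXA9 OFF libraries (1.06 and 1.64 CPM, against at most 0.156 CPM elsewhere). None fell with edgeR. For CAF-1 OFF against control edgeR called 0 of the 20 (0.0321% of all genes), 3 had an unadjusted p under 0.05 (10.7% of all genes), and DESeq2 called 1 (1.6% of all genes), Ifih1, which encodes an RNA sensor. Of 11 regulators of AU-rich mRNA decay, which shortens the life of many chemokine transcripts, Zfp36l1 (log2 2.40 ± 0.25) and Zfp36 (2.24 ± 0.25) rose in HOXA9 OFF, a share near the 13% of all genes. For CAF-1 OFF against control neither tool called any of the 11 (0 each), and 2 had an unadjusted p under 0.05, beside 10.7% of all genes.

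Neutrophil markers were compared beside the chemokines. The 10 neutrophil markers summed to 110 and 101 CPM in the control libraries, 437 and 699 CPM in those of CAF-1 OFF, and 848 and 473 CPM in those of HOXA9 OFF. In CAF-1 OFF most of that sum was Mmp8 (332 and 630 CPM, against 70.1 and 40.5 CPM in control), which encodes a granule collagenase. In HOXA9 OFF 8 of the 9 neutrophil markers tested rose (13% of all genes rose), led by S100a8 (log2 6.55 ± 0.41), S100a9 (6.38 ± 0.43) and Camp (6.25 ± 0.48). None of the 9 was called in CAF-1 OFF with edgeR, although 5 had an unadjusted p under 0.05 (10.7% of all genes) and DESeq2 called 4 (1.6% of all genes). The part of these markers in the Cxcl3, Ccl6 and Ccl9 values was not tested. The 8 mast cell and basophil markers summed to 595 and 231 CPM in the CAF-1 OFF libraries, 212 and 168 CPM in those of control, and 252 and 310 CPM in those of HOXA9 OFF. CAF-1 OFF replicate 1 stood apart, mostly through Cpa3, a mast cell protease, at 468 CPM against 128 to 276 CPM elsewhere, and Mcpt4 had 0 counts in all 6 libraries. Of the 6 tested, edgeR and DESeq2 called 0 in CAF-1 OFF against control, and 2, Cpa3 and Mcpt8, had an unadjusted p under 0.05 (10.7% of all genes). The basophil protease Mcpt8 was called by both tools in CAF-1 OFF against HOXA9 OFF (log2 1.69 ± 0.38, FDR = 0.0172, edgeR, where 9.56% of all genes were higher). The part of these markers in the chemokine values was not tested. T and B lymphocyte markers, from cells that also make Ccl3, Ccl4 and Ccl5, summed to 1.53 to 7.12 CPM in the 6 libraries. Most of that sum was Cd79a (1.45 to 7.01 CPM), and Cd3e, Cd3g and Cd8a had 0 counts in all 6 libraries. Of 8 fibroblast and endothelium markers, 2 were tested and 1, Pecam1, rose in HOXA9 OFF (log2 0.86 ± 0.10, edgeR, where 13% of all genes rose). Pecam1 was at 236 to 443 CPM in the 6 libraries, whereas Kdr had 0 counts in all of them and Cdh5 had at most 1.

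The genes most like each called chemokine over the 6 libraries were also identified, among those with a mean of at least 5 CPM. For Cxcl3 these were Ccdc99 (Pearson r = 0.987 of log2 CPM) and Tub (r = 0.981), and 25 of 9615 genes had an r over 0.95. Ccl6 was most like Zdhhc9 and Sh2b3 (r = 0.994 for both), with 220 of 9614 genes over 0.95. Ccl9 was most like Lphn2 and Ipo11 (r = 0.996 for both), with 388 such genes. These values describe 6 libraries in 3 groups that share treatment and depth, and carry no test.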

How the data were processed

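RNA-seq counts were analysed from 6 libraries in 3 groups of 2, which the titles of the samples give. According to the methods, the authors used STAR to align reads to mm9 and HTSeq-count to assign them to genes. The deposited values were raw read counts for 34199 gene symbols. The annotation, strand setting and overlap mode are not given in the sources used here. HTSeq-count leaves out multi-mapping reads, which lowers the counts of genes with close copies. The 5 tally lines of each file were left out.

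Counts were tested in R 4.3.3 with edgeR 4.0.16 (filterByExpr, 12460 genes; TMM scaling; quasi-likelihood F test, 1 mean per group, all 6 libraries). A call needed at least 1.5-fold and a Benjamini-Hochberg FDR under 0.05 over all genes. SEs were derived from the F statistic. CPM used TMM-scaled library sizes. The code was tested on simulated data. The alternatives were DESeq2 1.42.0, other scalings, filters and thresholds, 4-library fits, a replicate block and fits without each library. Exon lengths and coordinates are from the GENCODE annotation of NCBIM37 (mm9).

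The 10 chemokine genes, the gene lists and the tests were chosen with earlier results of these data known. All 10 are accounted for, and of each other list the called genes with the largest changes in HOXA9 OFF against control (up to 3 in each direction) and receptors of the chemokines are named. Other names (Pf4, Cxcl9, Ccl7, Ccl12, Mmp8, Ifih1, Cpa3, Mcpt4, Mcpt8, the lymphocyte markers, Kdr, Cdh5 and the markers beside Ccl2) were chosen after their values were seen. Some listed genes were left out and are not reported here.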

Additional observations from a re-analysis of the deposited data

How the results depend on the processing

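With 2 libraries a group, the power to call a change is low and calls near the threshold depend on the settings. A fit without 1 library leaves a group of 1 library, and the spread then comes from the other groups. In CAF-1 OFF against control, 0 chemokine genes were called by the edgeR analysis with the replicate block and 1, Cxcl3, by DESeq2, without a filter, in the fit to 4 libraries and in 0 to 1 cases when libraries were left out (1 without either HOXA9 OFF library). All genes called in that comparison went from 4 to 192 with DESeq2, 378 without a filter, 9 in the 4-library fit, 2 with the replicate block, 0 at 2-fold and FDR 0.01 (edgeR, where 1330 had an unadjusted p under 0.05), and 0 to 10 without 1 library (0 without CAF-1 OFF replicate 2 or control replicate 1, and 1 without control replicate 2). Whether same-numbered libraries were paired is not stated. The correlation of same-numbered deviations was 0.46 in HOXA9 OFF against control. It was -0.18 in CAF-1 OFF against control and 0.03 in CAF-1 OFF against HOXA9 OFF. A crossed replicate block, chosen after seeing the data, called 71 genes and 1 chemokine gene. In HOXA9 OFF against control, the 2 called chemokine genes became 5 without a filter, 4 with the replicate block and 2 to 5 without 1 library (5 without HOXA9 OFF replicate 1). The 2740 genes called became 987 at 2-fold and FDR 0.01, and 1602 to 2840 without 1 library (1602 without control replicate 2, 1750 without HOXA9 OFF replicate 1). With library size alone, 1434 of 2843 calls were higher, against 1622 of 2740. In CAF-1 OFF against HOXA9 OFF, the 3 called chemokine genes became 6, 5 and 2 to 6 under the same changes (2 without CAF-1 OFF replicate 1, 6 without HOXA9 OFF replicate 1), and the 2755 genes became 948 and 1711 to 2718 (1711 without HOXA9 OFF replicate 1). With library size alone, 1475 of 2809 calls were higher, against 1191 of 2755.

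Signs turned without 1 library for values that were not called. These ranged from -0.34 to 0.23 (Ccl3) and -0.66 to 0.23 (Ccl4) in CAF-1 OFF against control, from -1.11 to 0.18 (Cxcl2) and -5.49 to 5.41 (Ccl2) in HOXA9 OFF against control, and from -0.34 to 0.64 (Cxcl10) and -4.48 to 6.41 (Ccl2) in CAF-1 OFF against HOXA9 OFF. The Ccl2 extremes without HOXA9 OFF replicate 2 come from a library at 0 counts and are no measure of size. Ccl3 in CAF-1 OFF was at 0.039 with the crossed replicate block. Ccl6 and Ccl9 were called in HOXA9 OFF against control under every alternative run. The cause of the other changes was not tested.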
